A study of Mus musculus with 12 samples.

Results

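Accessibility was described at 116 ATAC-seq peaks whose nearest gene in the deposited tables is 1 of 10 lipid uptake and lipid droplet genes. These genes were Fabp5, Fabp4, Fabp3, Pmp2, Lpl, Apoe, Plin2, Cd36, Soat1 and Dgat2. The microglia table held 52 of its 91770 peaks near 9 of them, and had no peak for Pmp2. The NeuN+ table held 32 of 107627 peaks near 7 genes, with no peak for Fabp4, Pmp2 or Cd36. The Olig2+ table held 32 of 82577 peaks near 7 genes, with no peak for Fabp4, Lpl or Cd36. The genes were chosen with the microglia genotype difference around Fabp5 in view, so the member differences in microglia are given as descriptions without p-values, and counts of peaks past the limma threshold there stand beside those of all peaks only as a description. The genotype difference in the NeuN+ and Olig2+ nuclei was tested.

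The samples were forebrain cells and nuclei of C57BL/6 mice aged 4 months, either wild type (WT) or SgshKO, with n = 2 libraries in each of 6 groups. Sgsh encodes a lysosomal sulfatase that takes part in breaking down heparan sulfate, and its loss causes the storage disease mucopolysaccharidosis type IIIA. Microglia were sorted alive for CD11b and CX3CR1 with low CD45. NeuN+ nuclei lacked PU.1 and OLIG2, and Olig2+ nuclei lacked PU.1 and NeuN, and both were sorted after light fixation. The labels do not give the type of Sgsh allele, the sex, or the number of animals behind a library, so a p-value measures the spread between libraries, which may be technical. ATAC-seq counts where a transposase cuts open DNA, and a higher count can come from more cells with an open site or from a more open site in each cell, which cannot be told apart here.

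The members cover successive steps of lipid handling. Lipoprotein lipase (Lpl) frees fatty acids from lipoproteins, Apoe is the main lipoprotein carrier of the brain, and Cd36 is a scavenger receptor that takes up fatty acids and oxidized lipoproteins. The Fabp proteins and Pmp2, a myelin protein of the same family, carry fatty acids inside the cell. Dgat2 makes triglycerides, Soat1 makes cholesterol esters, and Plin2 coats the droplets that store both. Microglia that take up myelin or stored lipid are known to express Apoe, Lpl, Fabp5 and Plin2.

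Signals are tags per peak scaled to a library total of 10000000. Library totals ranged from 10771659 to 19555924 tags, and the median peak held 17 to 39 reads. Tags in peaks made up 48.7% to 67.4% of microglia libraries, with the highest share in SgshKO replicate 1. They made up 25.9% and 26.7% of the WT and 21.2% and 21.5% of the SgshKO NeuN+ libraries, and 30.9% to 31.8% of Olig2+ libraries. All 8 microglia markers had a start-site peak in microglia, all 8 neuron markers had one in NeuN+ nuclei, and all 8 oligodendrocyte markers had one in Olig2+ nuclei. The peak with the most tags within 1000 bp of the start of Sgsh held 229 and 192 tags in WT and 364 and 253 in SgshKO microglia. In NeuN+ nuclei it held 34.5 and 22.6 in WT and 9.07 and 13.3 in SgshKO, and in Olig2+ nuclei 65.9 and 74.2 in WT and 60.9 and 69.1 in SgshKO. An open promoter does not check whether the gene is functional.

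In microglia, a site 10053 bp downstream of the Fabp5 start differed most between the genotypes among the member peaks. This intergenic peak (mm10 chromosome 3, 10022535 to 10022742) held 4.32 and 4.24 tags in the WT libraries and 133 and 113 in the SgshKO libraries. Both WT libraries held few tags there and both SgshKO libraries many, with a ratio of means of 28.8. The log2 difference was 4.55 ± 0.41 (SE). Recovered whole reads were 5 in each WT library, so the WT level rests on few reads.

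The Fabp5 start site itself was already open in WT microglia. Its peak 56 bp upstream of the start (10012408 to 10012650) held 192 and 162 tags in WT and 306 and 251 in SgshKO, a log2 difference of 0.65 ± 0.27. Both SgshKO libraries were above both WT libraries. A second peak, in the first kilobase of the gene, held 25.1 and 27.1 in WT and 43.3 and 39.0 in SgshKO. Per kilobase, the start-site peak held 728 tags in WT, while the site 10053 bp downstream held 20.6 in WT and 593 in SgshKO.

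Fabp5 had 10 distal peaks in microglia, and the others showed no common direction. The most open one, 13419 bp downstream, held 237 and 194 tags in WT and 407 and 246 in SgshKO. The peak 38029 bp upstream held 176 and 145 in WT and 203 and 131 in SgshKO, and these overlapped. The peak 64722 bp upstream was lower in SgshKO, with 62.2 and 57.6 in WT and 36.4 and 21.3 in SgshKO. Thus the strong difference lay at 1 site, flanked within a few kilobases by peaks that differed by 0.28 to 0.99 on the log2 scale.

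**Figure D1:**
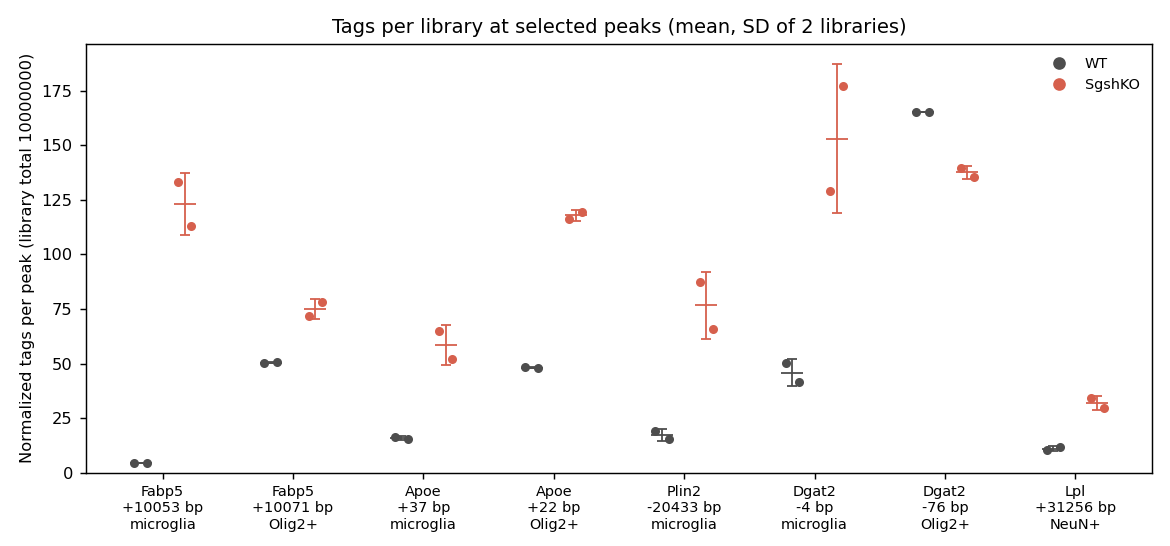
Normalized tags per peak (scaled to a library total of 10000000) at 8 member peaks, named by gene, distance from the start site in bp and sort. Points are libraries, and bars are the mean and SD of 2 libraries. In both SgshKO microglia libraries the Fabp5 peak at +10053 bp lies above 100 tags, against 4.32 and 4.24 in WT.

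Peaks with a p under 0.05 by limma, adjusted over their table, are termed called. Of the 52 microglia member peaks 8 were called (15.4%), against 7.37% of all peaks. Of these, 7 were higher in SgshKO (13.5%, against 5.05% of all peaks) and 1 was lower (1.92%, against 2.33%). Among 16 start-site peaks, 3 were called higher and 1 lower, against 8.59% and 1.2% of all start-site peaks. Among 36 distal peaks, 4 were called higher and 0 lower by limma, against 3.8% and 2.72% of all distal peaks. The median log2 difference was 0.33 over the members and -0.08 over all peaks. Since the genes were chosen on this contrast, nothing is read from these shares. Leaving out WT replicate 1 gave 5 called member peaks and leaving out WT replicate 2 gave 1. Leaving out SgshKO replicate 1 gave 15, and leaving out SgshKO replicate 2 gave 23. After scaling to tags in peaks, 6 member peaks were called higher and 4 lower.

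The lipoprotein gene Apoe had 6 peaks in microglia, and the 2 largest differences lay at its promoter. The peak 37 bp from the start (chromosome 7, 19699030 to 19699272) held 16.4 and 15.2 tags in WT and 64.9 and 52.0 in SgshKO, so that both SgshKO libraries were far above both WT libraries. Its log2 difference was 1.81 ± 0.39. The peak 534 bp upstream held 36.3 and 1.69 tags in WT and 50.2 and 48.3 in SgshKO. Here the WT replicates disagreed, and without WT replicate 2 the log2 difference was 0.43 in place of 2.33. At the other 4 peaks the differences were between -0.22 and 0.90. The largest of these, 1911 bp upstream, held 74.3 and 10.2 tags in WT and 70.1 and 39.9 in SgshKO. There too the WT replicates disagreed, the groups overlapped, and without WT replicate 2 the log2 difference was -0.48.

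Dgat2, the triglyceride synthase, had 11 peaks, and the one at its start (4 bp upstream, chromosome 7, 99182562 to 99182873) held 50.1 and 41.5 tags in WT and 129 and 177 in SgshKO, a log2 difference of 1.71 ± 0.32. A peak 322 bp into the gene was lower, with 32.0 and 23.7 in WT and 6.06 and 7.43 in SgshKO, a log2 difference of -1.89 ± 0.47. The neighbouring peaks at one promoter thus differed in opposite directions between the genotypes. An intronic Dgat2 peak 14514 bp into the gene held 25.9 and 18.6 in WT and 66.7 and 46.4 in SgshKO (log2 difference 1.30 ± 0.39).

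For Plin2, the droplet coat gene, the largest difference was at an intergenic peak 20433 bp upstream (chromosome 4, 86690373 to 86690612). It held 19.0 and 15.3 tags in WT and 87.4 and 65.9 in SgshKO, a log2 difference of 2.09 ± 0.38. The Plin2 promoter peak, 14 bp from the start, held 36.3 and 20.3 in WT and 46.8 and 52.0 in SgshKO. A more open peak 609 bp into the gene overlapped between the genotypes, with 82.1 and 50.0 in WT and 67.5 and 62.2 in SgshKO. As at Fabp5, the larger difference was at a distal peak and not at the start site.

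Soat1, the cholesterol ester synthase, had an open promoter in both genotypes. Its peak 6 bp from the start (chromosome 1, 156474204 to 156474441) held 89.9 and 92.3 tags in WT and 146 and 143 in SgshKO, a log2 difference of 0.66 ± 0.30. The groups did not overlap there, and 4 intronic peaks had differences between -0.19 and 0.69.

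Of the remaining genes Fabp3 had 6 microglia peaks, Cd36 had 2 and Fabp4 had 1. The Fabp3 promoter peak, 163 bp upstream, held 39.8 and 35.6 tags in WT and 42.4 and 33.4 in SgshKO, a log2 difference of 0.00 ± 0.37. The largest Fabp3 difference lay 8080 bp downstream, in an intron of Zcchc17, at a peak of few tags, with 2.59 and 1.69 in WT and 15.6 and 10.2 in SgshKO. Cd36 had no peak at the start site, and its 2 intronic peaks were both higher in SgshKO, 12.1 and 16.9 against 26.0 and 33.4, and 33.7 and 16.9 against 46.8 and 50.1. The only Fabp4 peak, 4885 bp upstream, held 30.3 and 16.1 in WT and 80.5 and 29.7 in SgshKO, and the groups overlapped.

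Lpl, the lipase that frees fatty acids, had 4 peaks in microglia. Its start-site peak, 711 bp into the gene, held 24.2 and 25.4 tags in WT and 14.7 and 6.50 in SgshKO, a log2 difference of -1.25 ± 0.47. Of its 3 downstream peaks, the one at 45819 bp was higher in SgshKO, the one at 71425 bp overlapped, and the one at 73734 bp was lower.

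Markers of other cells were set beside these values. In microglia libraries the border macrophage markers with a start-site peak, 2 of 6 genes, summed to 41.5 and 31.3 tags in WT and 69.3 and 55.7 in SgshKO. Cd163, Lyve1, Cbr2 and F13a1 of that list had no start-site peak. The oligodendrocyte sum (4 of 8 genes) was 296 and 270 in WT, against 374 and 322 in SgshKO, with 1 of 6 peaks called higher. The oligodendrocyte precursor sum (2 of 4 genes) was 141 and 108 in WT, against 59.7 and 55.7 in SgshKO, with 1 of 4 peaks called lower. At the deposited scaling the microglia sum overlapped between the genotypes, from 1800 to 2329, with 1 of 15 peaks called lower. The neuron, astrocyte, endothelial and blood myeloid sums overlapped too. These overlaps depended on the scaling. Relative to tags in peaks, the microglia, astrocyte and endothelial sums were lower in both SgshKO libraries than in both WT libraries. The neuron, blood myeloid and oligodendrocyte sums overlapped on that scale. The precursor sum stayed lower and the border macrophage sum higher in SgshKO. The part of other cells in the differences at the member peaks was not tested.

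**Figure D2:**
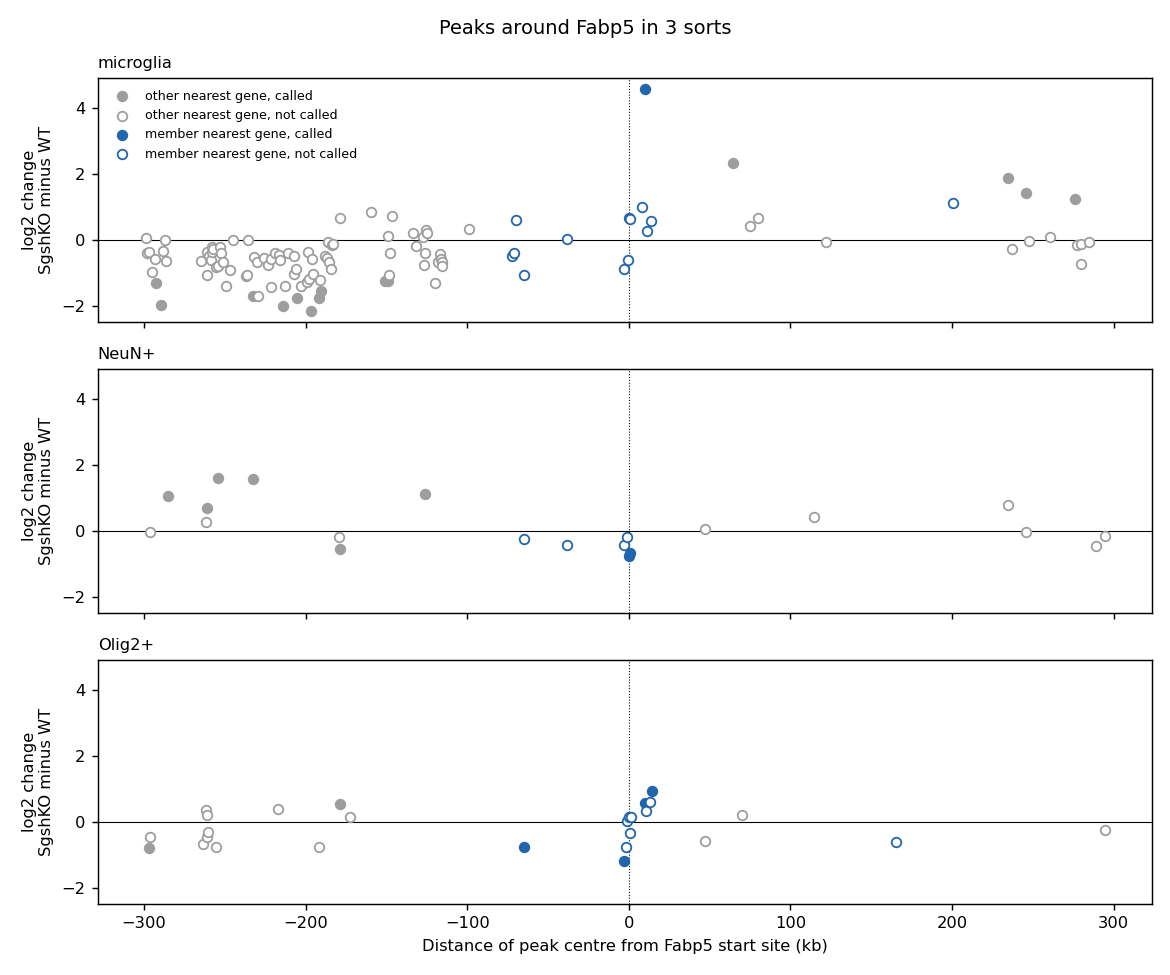
Log2 difference (SgshKO minus WT) of every peak within 300 kb of the Fabp5 start site against its distance in kb, in 3 panels by sort. Filled points were called, and blue points have a member as nearest gene. In microglia the called peaks left of Fabp5 are all below 0 and those from +10 kb rightward are all above 0.

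The Fabp genes lie together on chromosome 3, and the window of 300000 bp on each side of the Fabp5 start was described in the same way. RefSeq places Pag1 upstream, and Pmp2, Fabp9, Fabp4, Fabp12 and Impa1 downstream. Of 114 microglia peaks in the window, 15 were called (13.2%, against 7.37% of all peaks). By direction, 4.39% were called higher, against 5.05% of all peaks, and 8.77% lower, against 2.33%. The share called higher was thus not above that of all peaks. The 5 higher ones were the Fabp5 site, a peak near Gm9833 at 64681 bp, and 3 peaks near Fabp12 at 234760, 245864 and 276194 bp. The Gm9833 peak held 16.4 and 6.78 tags in WT and 69.3 and 47.4 in SgshKO. All 10 lower ones lay upstream, near Pag1 and Zfp704, and the median over the window was -0.48. The window held 21 peaks in NeuN+ nuclei, of which 5 were called higher and 3 lower, together 38.1% against 29.8% of all peaks. These were 23.8% higher and 14.3% lower, against 10.2% and 19.6% of all peaks. In Olig2+ nuclei the window held 27 peaks, of which 3 were called in each direction, together 22.2% against 19.8% of all peaks. Each direction made up 11.1%, against 8.17% of all peaks called higher and 11.7% called lower. These counts rest on few libraries: leaving out WT replicate 1 or 2 in microglia gave 3 or 1 calls, and leaving out SgshKO replicate 1 or 2 gave 37 or 27. The NeuN+ count was 1 without WT replicate 1 and 0 without either SgshKO library or with DESeq2, and the Olig2+ count was 2 without either WT library.

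In Olig2+ nuclei, Apoe peaks rose in SgshKO and the Fabp5 locus changed in both directions. The Apoe promoter peak, 22 bp from the start (19699060 to 19699273), held 48.2 and 48.1 tags in WT and 116 and 119.7 in SgshKO. The replicates agreed closely in each genotype, and the rise was 1.27 ± 0.14 on the log2 scale (limma, adjusted p = 1.11e-07). It was called under all alternatives and without each library. The other called Apoe peaks were 4: 586 bp into the gene (1.55 ± 0.37, adjusted p = 0.00385), 3806 bp upstream in a Tomm40 intron (1.37 ± 0.31, adjusted p = 0.00251), 1385 bp upstream (0.77 ± 0.27, adjusted p = 0.0394) and in an exon at 1589 bp (0.88 ± 0.29, adjusted p = 0.0335). Without WT replicate 1 none of these 4 was called, and the last 2 were also not called without WT replicate 2 or without SgshKO replicate 2. DESeq2 did not call the peak 1385 bp upstream. The log2 changes at the 9 Apoe peaks ran from 0.30 to 1.55, and 5 of them were called higher (55.6%, against 8.17% of all peaks). These 9 peaks lie at 1 gene and are not independent.

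The site downstream of Fabp5 that held few tags in WT microglia was open in both genotypes of Olig2+ nuclei. This peak, 10071 bp downstream (10022542 to 10022770), held 50.3 and 50.6 tags in WT and 71.9 and 78.4 in SgshKO, and it overlapped the microglia peak reciprocally by at least 50%. It rose by 0.56 ± 0.15 on the log2 scale (limma, adjusted p = 0.01). A peak 14258 bp downstream rose from 28.5 and 23.5 to 58.4 and 43.2 tags (0.93 ± 0.20, limma adjusted p = 0.00158). The NeuN+ table had no peak at either site. The tables were scaled separately, so levels are set side by side across sorts only as a description.

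Upstream of Fabp5 in Olig2+ nuclei 2 peaks fell. The one 64728 bp upstream held 34.2 and 29.1 tags in WT and 16.6 and 19.9 in SgshKO, a log2 change of -0.76 ± 0.23 (limma, adjusted p = 0.0191). The one 2973 bp upstream held 13.5 and 15.3 in WT and 6.15 and 5.32 in SgshKO, a change of -1.19 ± 0.32 (limma, adjusted p = 0.00965). The Fabp5 start-site peak held 144 and 142 in WT and 162 and 152 in SgshKO and did not pass the test (0.13 ± 0.10, limma adjusted p = 0.384). Without either WT library the calls at the site 10071 bp downstream and at both falling peaks were lost, and that at the peak 64728 bp upstream was also lost without SgshKO replicate 1. DESeq2 also did not call the peaks 10071 bp downstream and 64728 bp upstream. The peak 14258 bp downstream was called under every setting.

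Of the droplet and ester synthesis genes, Dgat2 had 8 peaks in Olig2+ nuclei, and Soat1 and Plin2 had 1 each. None of these was called by limma, where 19.8% of all peaks were. With so few peaks, this does not show that these genes were unchanged in Olig2+ nuclei. The Dgat2 start-site peak was the most open member peak there in WT, with 165.5 and 165.2 tags in WT and 139.6 and 136 in SgshKO (-0.26 ± 0.10, limma adjusted p = 0.0692). A Dgat2 peak 16235 bp into the gene held 14.5 and 18.4 in WT and 8.61 and 9.31 in SgshKO (-0.80 ± 0.30, limma adjusted p = 0.0539), and was called with a pseudocount of 5 and with the replicate block. Soat1 held 51.4 and 42.4 in WT and 59.0 and 65.8 in SgshKO (0.41 ± 0.17, limma adjusted p = 0.0793), and was called after median-of-ratios scaling and by edgeR. The Plin2 start-site peak was low, with 6.22 and 5.62 in WT and 12.3 and 9.31 in SgshKO (0.76 ± 0.34, limma adjusted p = 0.11). The Fabp3 start-site peak was also low, at 4.67 and 6.65 in WT and 9.22 and 7.31 in SgshKO (0.48 ± 0.36, limma adjusted p = 0.35). The only Pmp2 peak, 5744 bp downstream, held 8.30 and 10.2 in WT and 6.15 and 5.32 in SgshKO (-0.60 ± 0.35, limma adjusted p = 0.22).

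Of the 32 Olig2+ member peaks 9 were called (28.1%), against 19.8% of all peaks. The 7 that rose (21.9%, against 8.17% of all peaks) were 5 Apoe and 2 Fabp5 peaks, and the 2 that fell (6.25%, against 11.7%) were Fabp5 peaks. Among 11 start-site peaks, 2 rose and 0 fell, where 12.7% and 7.56% of all start-site peaks were called. Among 21 distal peaks, 5 rose and 2 fell, where 6.7% and 13% of all distal peaks were called. The peaks of 1 gene lie close together and are not independent. The count fell to 2 without WT replicate 1 and 4 without WT replicate 2, and DESeq2 called 2 of the 12 member peaks for which it gave an adjusted p.

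Microglia and astrocytes are known sources of Apoe, and their markers were measured in the same nuclei. Microglia markers with a start-site peak, 2 of 8 genes, summed to 240 and 233 tags in WT and 271 and 284 in SgshKO. Of their 4 peaks 1 was called higher, while Cx3cr1, P2ry12, Tmem119, Csf1r, Siglech and Fcrls had no start-site peak. The astrocyte sum (1 of 6 genes) was 9.34 and 8.18 in WT, against 6.15 and 5.98 in SgshKO. The oligodendrocyte sum was 3178 and 3148 in WT, against 2516 and 2507 in SgshKO, with 6 of 23 peaks called lower. The endothelial sum (1 of 6 genes) was 3.63 and 2.56 in WT, against 8.61 and 10.6 in SgshKO, and its 1 peak was called higher. The neuron sum (5 of 8 genes) was 261 and 296 in WT, against 346 and 336 in SgshKO, with 2 of 8 peaks called higher. The oligodendrocyte precursor sum (4 of 4 genes) was 277 and 270.5 in WT, against 321 and 314 in SgshKO, with 1 of 9 peaks called lower. No border macrophage or blood myeloid marker had a start-site peak. The part of these cells in the rise at Apoe was not tested.

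**Figure D3:**
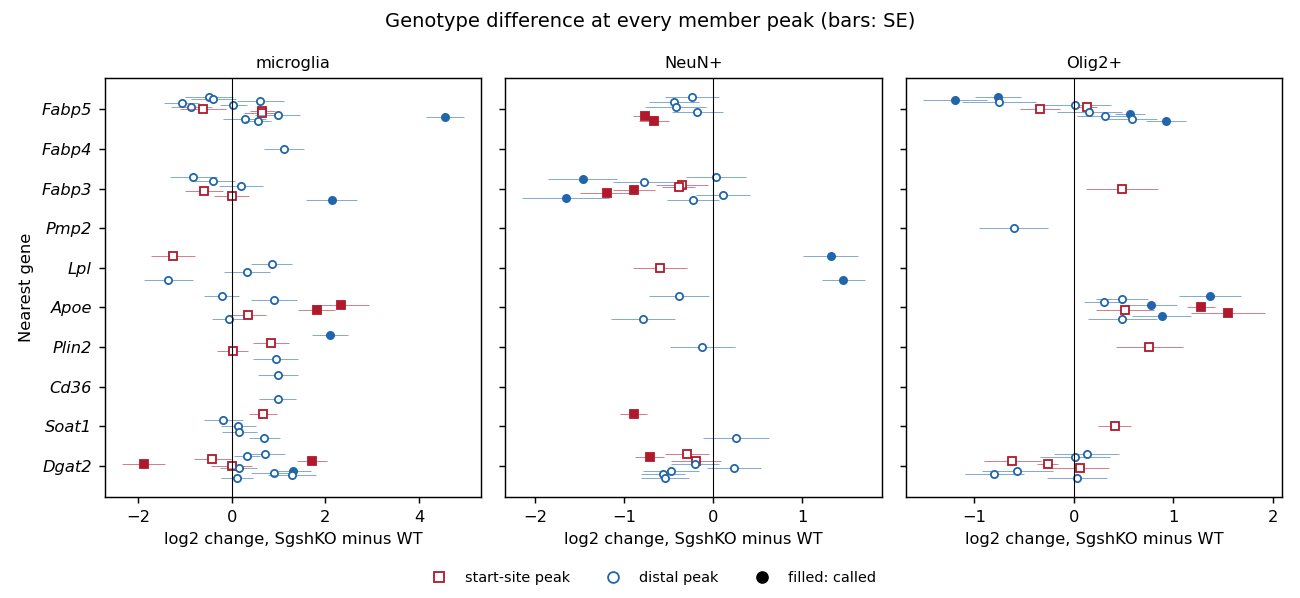
Log2 difference (SgshKO minus WT, with its SE) of every member peak by nearest gene, in 3 panels by sort. Squares are start-site peaks, circles distal peaks, and filled symbols were called. All Apoe points lie right of 0 in Olig2+ nuclei, and the Fabp5 start-site peaks lie left of 0 in NeuN+ nuclei.

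In NeuN+ nuclei, start-site peaks of Fabp5, Soat1, Dgat2 and Fabp3 fell in SgshKO while 2 distal Lpl peaks rose. The Fabp5 peak at the start (57 bp upstream, 10012406 to 10012650) held 108 and 123 tags in WT and 62.1 and 72.4 in SgshKO, a change of -0.77 ± 0.13 (limma, adjusted p = 0.00046). The second start-site peak, 663 bp into the gene, held 85.5 and 63.8 in WT and 46.1 and 46.4 in SgshKO (-0.67 ± 0.17, limma adjusted p = 0.00624). Soat1 held 80.4 and 72.3 in WT and 39.8 and 41.3 in SgshKO (-0.90 ± 0.16, limma adjusted p = 0.000453). Dgat2 held 65.1 and 65.0 in WT and 39.1 and 39.4 in SgshKO (-0.72 ± 0.16, limma adjusted p = 0.00315). In each of these both SgshKO libraries were below both WT libraries, and the WT replicates were farthest apart at 663 bp in Fabp5.

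Fabp3, the heart-type fatty acid carrier that neurons also express, had 10 NeuN+ peaks, of which 4 fell (40%, where 19.6% of all peaks and 44.9% of all start-site peaks were called lower). These were at 190 bp (-0.89 ± 0.24, limma adjusted p = 0.01), 727 bp (-1.20 ± 0.30, adjusted p = 0.00702), 9326 bp upstream (-1.47 ± 0.39, adjusted p = 0.00958) and at the end of the gene, 7490 bp downstream (-1.66 ± 0.49, adjusted p = 0.0167). The most open one, 160 bp upstream, held 41.3 and 41.2 tags in WT and 31.4 and 31.1 in SgshKO and did not pass the test (-0.39 ± 0.18, limma adjusted p = 0.113). None of the 4 was called by DESeq2, without WT replicate 2 or without either SgshKO library.

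The Lpl peaks that rose were both intergenic. The one 31256 bp downstream (chromosome 8, 68911698 to 68911925) held 10.2 and 11.9 tags in WT and 34.2 and 29.8 in SgshKO, a change of 1.46 ± 0.24 (limma, adjusted p = 0.000304). The one 41358 bp upstream held 5.66 and 6.21 in WT and 18.9 and 14.0 in SgshKO (1.31 ± 0.31, limma adjusted p = 0.00429). The Lpl start-site peak, 854 bp into the gene, held 16.4 and 11.3 in WT and 9.07 and 8.25 in SgshKO and did not pass the test (-0.60 ± 0.30, limma adjusted p = 0.137). Apoe had no start-site peak in NeuN+ nuclei, and its 2 distal peaks did not pass the test, with adjusted p of 0.104 and 0.389 by limma. Plin2 had 1 distal peak there, with 6.23 and 6.78 tags in WT and 7.68 and 4.44 in SgshKO, which overlapped.

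The start-site peaks of the whole NeuN+ table were shifted downward too. Of the 32 member peaks 10 were called (31.2%), against 29.8% of all peaks. Of these, 2 rose (6.25%, against 10.2%) and 8 fell (25%, against 19.6%). Among the 11 start-site peaks 6 fell and 0 rose by limma, where 44.9% of all start-site peaks were called lower and 1.74% higher. Among the 21 distal peaks 2 rose and 2 fell, where 12.6% of all distal peaks were called higher and 12.6% lower. The median change of member start-site peaks was -0.67, and that of all start-site peaks -0.53. The members' count was therefore near the background of this table. The share of tags in peaks was also lower in SgshKO. The neuron marker sum fell from 1078 and 1006 to 573 and 566 tags, with 13 of 25 peaks called lower. Every other marker list with a start-site peak had lower sums in SgshKO too. The oligodendrocyte sum was 144 and 128 in WT, against 68.4 and 69.8 in SgshKO. The astrocyte sum was 137 and 127 in WT, against 86.6 and 97.8 in SgshKO. The part of these shifts in the result was not tested.

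The scaling bore on the NeuN+ directions of the table as a whole. All peaks had a median of -0.23 at the deposited scaling and 0.05 after scaling to tags in peaks. At the deposited scaling 11008 peaks were called higher and 21097 lower, and after scaling to tags in peaks 18962 higher and 9534 lower. Each of the 10 called member peaks kept its sign under every setting, but the calls at the Dgat2 start, at 663 bp in Fabp5 and at 190 bp in Fabp3 were lost after scaling to tags in peaks. After quantile normalization 2 member peaks were called higher and 3 lower, and the Fabp5 start-site change was -0.25 (limma, adjusted p = 0.219). DESeq2 called 1 member peak, the Lpl peak 31256 bp downstream. Leaving out WT replicate 1 gave 5 called member peaks, without those at the Dgat2 start, at 663 bp in Fabp5 and 3 of the 4 at Fabp3. Leaving out WT replicate 2 gave 6, without the 4 at Fabp3. Without either SgshKO library limma called 0 of the 107627 peaks, while 9 and 10 member peaks had an unadjusted p under 0.05.

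**Figure D4:**
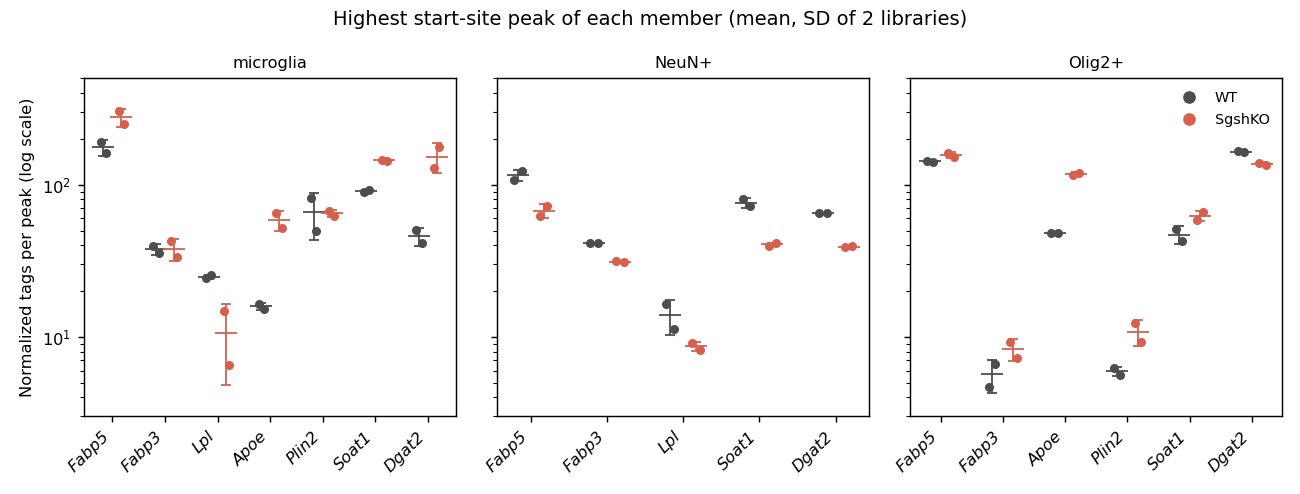
Normalized tags per peak (log axis) at the most open start-site peak of each member with one, in 3 panels by sort. Points are libraries, and bars are the mean and SD of 2 libraries. SgshKO points lie below WT points for all 5 genes in NeuN+ nuclei, and above them for Fabp5, Soat1, Apoe and Dgat2 in microglia.

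The genotype effect was compared directly between Olig2+ and NeuN+ nuclei at 10 member peaks that matched one to one, of 29576 matched peaks, and 3 differed, where 35% of all matched peaks did. The Soat1 start-site effect was 1.30 ± 0.23 higher in Olig2+ nuclei on the log2 scale (limma, adjusted p = 4.02e-05), with both NeuN+ libraries of SgshKO below and both Olig2+ ones above their WT. The Fabp5 start-site effect was 0.90 ± 0.17 higher (limma, adjusted p = 8.37e-05). An Apoe peak about 2008 bp upstream differed by 1.09 ± 0.42 (limma, adjusted p = 0.0395), and its call was lost when any 1 of 6 of the 8 libraries was left out. The median over all matched peaks was 0.41, and 0.01 after quantile normalization. After that normalization Soat1 alone of the 3 was called (0.83 ± 0.23, limma adjusted p = 0.0104), and the Fabp5 difference was 0.29 (limma adjusted p = 0.239).

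The members differed in how widely their sites were open. Of the 52 microglia member peaks, 14 overlapped a NeuN+ peak and 16 an Olig2+ peak reciprocally by 50%, where 27.2% and 24.7% of all microglia peaks did. In all, 9 overlapped in both, and 31 in neither. Start-site peaks were shared more often than distal ones, 9 of 16 against 7 of 36 with Olig2+ nuclei and 8 of 16 against 6 of 36 with NeuN+ nuclei, a difference that was not tested. Neither the split by class nor the overlap with both nuclei was counted over all microglia peaks. They are therefore not read as a trait of the members. In WT, the start-site peak of Fabp5 held 728, 471 and 654 tags per kilobase in microglia, NeuN+ and Olig2+ nuclei. That of Soat1 held 383, 349 and 202, and that of Dgat2 147, 282 and 738. Apoe held 65.2 in microglia and 225 in Olig2+ nuclei. In WT the most open member start site per kilobase was thus that of Fabp5 in microglia and NeuN+ nuclei and that of Dgat2 in Olig2+ nuclei.

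RefSeq promoter windows of GRCm38.p6 matched 5 of the 10 members (Soat1, Plin2, Fabp3, Cd36 and Apoe, the last with 3 windows). The 250 bases upstream of the start are shown for the gene whose promoter rose in Olig2+ nuclei and for 2 storage genes. They are written 5′ to 3′ on the minus strand, on which all 3 genes lie, and capitals mark bases inside the microglia peak. The windows are chr7:19699189-19699438 for Apoe, chr1:156474329-156474578 for Soat1 and chr4:86670060-86670309 for Plin2.
Apoe: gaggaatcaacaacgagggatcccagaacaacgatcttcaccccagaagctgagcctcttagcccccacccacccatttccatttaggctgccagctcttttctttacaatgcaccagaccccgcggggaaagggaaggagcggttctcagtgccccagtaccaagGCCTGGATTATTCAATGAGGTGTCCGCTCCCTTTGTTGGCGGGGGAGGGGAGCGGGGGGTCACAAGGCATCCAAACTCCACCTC
Soat1: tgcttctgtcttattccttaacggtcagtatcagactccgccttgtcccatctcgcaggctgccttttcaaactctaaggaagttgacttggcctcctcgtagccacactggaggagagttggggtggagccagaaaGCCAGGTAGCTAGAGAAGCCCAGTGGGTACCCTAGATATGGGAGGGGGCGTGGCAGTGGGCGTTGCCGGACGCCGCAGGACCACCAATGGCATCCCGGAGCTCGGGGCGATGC
Plin2: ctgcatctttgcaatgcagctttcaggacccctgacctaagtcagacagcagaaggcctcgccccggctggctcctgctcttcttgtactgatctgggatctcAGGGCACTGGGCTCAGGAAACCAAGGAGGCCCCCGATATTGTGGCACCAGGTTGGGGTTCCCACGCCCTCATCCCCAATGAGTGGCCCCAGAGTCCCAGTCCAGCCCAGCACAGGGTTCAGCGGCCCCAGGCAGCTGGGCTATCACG
Microglia and Olig2+ peaks covered 84 and 85 bases of the Apoe window, 113 and 113 of the Soat1 window and 147 and 168 of the Plin2 window. NeuN+ peaks covered 113 bases of the Soat1 window and 0 of the other 2.

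The same 250 bases upstream of the start in each window of the 5 matched members were searched on both strands for CACGTG and CATGTG (E-boxes of the kind MITF and TFE factors bind), TGANTCA (AP-1), GGAAGT (the core that PU.1 and other ETS factors share) and AGGTCA (a nuclear receptor half-site). None of the motifs overlapped another in the member windows. The Fabp3 window held CATGTG, found in 12.3% of 32851 promoter stretches of the same length, cut in the same way. CACGTG, found in 6.02% of promoters, and TGANTCA, found in 6.75%, had no match in the member windows. GGAAGT, found in 19.7%, was in the Soat1 and Cd36 windows, starting 172 and 176 bases upstream. AGGTCA, found in 14.0%, was in the Plin2 and Cd36 windows, starting 218 and 228 bases upstream. The Soat1 and Plin2 matches lay outside the capitals above. No match says only that these letters are not in the window.

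The genes whose start-site profile was closest to that of Fabp5 over the 12 libraries were Mier1, Crebrf and Wdtc1, of 7982 genes with a start-site peak in all 3 tables. The root mean square difference of their centred log2 values was 0.0924, 0.124 and 0.129. Of the other members, Soat1 ranked 1280, Dgat2 4814 and Fabp3 7563. The 12 values share the scaling of their library, so this likeness is a description.

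Other genes of lipid uptake, storage and release, 76 in all, gave the setting. In microglia 456 peaks lay near 66 of them, and 35 were called higher and 5 lower (7.68% and 1.1%, against 5.05% and 2.33% of all peaks), with a median of 0.02. Without WT replicate 1 the counts were 11 and 0, and without WT replicate 2 they were 4 and 0. Leaving out SgshKO replicate 1 gave 37 and 48, and leaving out SgshKO replicate 2 gave 96 and 19. After scaling to tags in peaks 36 were called higher and 35 lower. Among called peaks with a mean at or above the median of the table, the largest differences, taking 1 peak a gene, were at Apoc2, an Lpl cofactor beside Apoe, Gpat3, which starts glycerolipid synthesis, and Rxra, a nuclear receptor. The Gpat3 peak, in an intron 14614 bp into the gene, held 2.59 and 4.24 tags in WT and 64.1 and 54.8 in SgshKO. The Apoc2 peak held 63.1 and 0.85 in WT and 197 and 151 in SgshKO, and the WT replicates disagreed there. The Rxra peak held 16.4 and 20.3 in WT and 121 and 76.1 in SgshKO. Of 23 peaks near droplet coat and assembly genes, limma called 0, with 6 at an unadjusted p under 0.05, edgeR called 3 and DESeq2 called 0.

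In NeuN+ nuclei 404 peaks lay near 64 of these genes, of which 33 rose and 80 fell (8.17% and 19.8%, against 10.2% and 19.6% of all peaks). These shares were near those of all peaks. After scaling to tags in peaks 58 rose and 38 fell. The counts were 18 and 27 without WT replicate 1, 15 and 30 without WT replicate 2, and 0 in each direction without either SgshKO library. The largest changes among better covered peaks were rises at Lpin1 (1.51 ± 0.35, limma adjusted p = 0.00387), Lpin2 (1.32 ± 0.28, adjusted p = 0.00223) and Lipg (1.31 ± 0.20, adjusted p = 0.000158). Lpin1 and Lpin2 make diacylglycerol, and Lipg is a lipase of the Lpl family. All 3 peaks were distal, like the Lpl peaks that rose and like 10601 of the 11008 peaks called higher in NeuN+ nuclei.

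In Olig2+ nuclei 375 peaks lay near 60 of the genes, of which 19 rose and 61 fell (5.07% and 16.3%, against 8.17% and 11.7% of all peaks). Without WT replicate 1 the counts were 7 and 26, and without WT replicate 2 they were 8 and 31. Of 44 peaks near droplet coat and assembly genes 2 rose and 21 fell, with a median of -0.55, against -0.07 for all peaks. Of those that fell, 18 were the 18 peaks of Plin4, a perilipin gene, so that the count rests mainly on 1 gene. Without WT replicate 1 the list had 12 peaks that fell. The Plin4 promoter peak, 77 bp upstream, fell from 210.6 and 210.7 tags to 46.7 and 40.5 (-2.25 ± 0.13, limma adjusted p = 1.08e-13). Peaks near Rxra (-1.84 ± 0.26, limma adjusted p = 8.03e-06) and Lmf1, which matures lipoprotein lipase (-1.73 ± 0.15, limma adjusted p = 1.38e-09), also fell. Plin2, the perilipin among the members, had 1 peak there that did not pass the test.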

How the data were processed

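ATAC-seq was measured in 12 libraries. Reads were single-end, and Bowtie2, HOMER and build mm10 are named per the submitters' processing notes; for read shifting and duplicates the sources used here give nothing. Each sort has 1 deposited table, with peaks merged over both genotypes, their nearest gene, and a signal, tags per peak scaled to a library total of 10000000 per the file headers. The deposited tables also hold a Peak Score, a score that was not used. Dividing out the scaling gave whole reads for 100% of values (within 0.01). Unmatched columns numbered 0.

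Within each table limma 3.58.1 (R 4.3.3, trend, two-sided, no covariate) was fitted to log2(normalized tags + 1), with genotype as the only term. Peaks with a p under 0.05 after Benjamini-Hochberg adjustment over their table were called, and log2 differences understate those of low peaks. Errors after a log2 value are SE. Start-site peaks lay within 1000 bp of the start named in the table, and the rest were distal. The effect in Olig2+ against NeuN+ nuclei was tested on one-to-one matched peaks (reciprocal overlap of 50%). edgeR 4.0.16 on the recovered reads called 14132 peaks in microglia, 29497 in NeuN+ and 17864 in Olig2+ nuclei, and DESeq2 1.42.0 was another alternative. The fits were tested on simulated data. The other alternatives were the pseudocount, a filter on low peaks, 3 scalings, a replicate block, other windows and overlaps, and each library left out.

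The peaks named were, per member and table, the most open start-site peak, distal peaks called in microglia and the distal peak with the smallest p in nuclei. Of the other lipid genes, the 3 called peaks with the largest change and a mean at or above the table's median were named, 1 per gene. Further member peaks, such as all called ones, were named after their values were seen. The members and lists were chosen with earlier results of these data known. The labels do not say whether libraries with the same replicate number share an animal or a batch. Over peaks, the differences of replicate 1 minus replicate 2 in WT and in SgshKO correlated at 0.04, 0.0036 and 0.00069 in microglia, NeuN+ and Olig2+ libraries. Such a correlation leaves out any offset common to all peaks, so it cannot exclude pairing. With the replicate block limma called 14489 microglia peaks, against 6765 without it.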

Additional observations from a re-analysis of the deposited data

Results flagged for a closer look

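At some start sites both SgshKO libraries lay above both WT libraries in microglia and below them in 1 or both kinds of nuclei. Of all start-site peaks in NeuN+ nuclei 44.9% were called lower, with a median of -0.53, beside a median of 0.03 in microglia. In Olig2+ nuclei 7.56% of all start-site peaks were called lower. How many of all start sites showed such opposite directions was not counted, so this is not read as particular to the members. The differences between microglia and nuclei at these start sites were not tested, since the microglia values had chosen the genes. The tables of all sorts were scaled separately. Against NeuN+ nuclei the log2 difference between the effects was 1.56 at the Soat1 start site, 1.42 and 1.30 at the Fabp5 peaks 56 bp upstream and 620 bp downstream of the start, and 2.42 at the Dgat2 start site. Against Olig2+ nuclei, where the Soat1 start site and the Fabp5 peak nearest the start were not lower in SgshKO, it was 0.98 at the Fabp5 peak 620 bp into the gene and 1.97 at the Dgat2 start site.

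Between Olig2+ and NeuN+ nuclei the difference was tested with limma, and 35% of all matched peaks differed. Of the member differences that follow, only that at Soat1 was also called after quantile normalization. The limma adjusted p was then 0.239 at the Fabp5 start site and 0.194 at the Apoe peak. The effect was higher in Olig2+ nuclei by 1.30 at the Soat1 start site (adjusted p = 4.02e-05), by 0.90 at the Fabp5 start site (adjusted p = 8.37e-05) and by 1.09 at the Apoe peak about 2008 bp upstream (adjusted p = 0.0395), beside a median of 0.41 over all matched peaks.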

How the results depend on the processing

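With n = 2 libraries a group the counts of calls depended on single libraries. In microglia the 8 called member peaks became 13 after median-of-ratios scaling, 16 with edgeR, 5 with DESeq2 and 16 with the replicate block, and 1 to 23 when a library was left out. In NeuN+ nuclei the 10 became 5 after quantile normalization, 1 with DESeq2, and 0 to 6 when a library was left out. In Olig2+ nuclei the 9 became 2 with DESeq2, which gave no adjusted p for most member peaks, and 2 to 10 when a library was left out. Of the 3 differences between nuclei 1 was called after quantile normalization, and 2 to 4 when a library was left out. The cause of these moves was not tested. The replicate block gave 10 member calls in NeuN+ nuclei, 10 in Olig2+ nuclei and 3 between them. Of the nuclei peaks named, 2 changed sign: the NeuN+ Plin2 peak 26937 bp upstream, at -0.13, was 0.13 scaled to tags in peaks, 0.0596 with median of ratios, 0.10 with edgeR, 0.11 with DESeq2 and between -0.46 (without SgshKO replicate 1) and 0.21 (without SgshKO replicate 2) when a library was left out, and the NeuN+ Soat1 peak at 19768 bp, at 0.25, ranged from -0.11 (without SgshKO replicate 1) to 0.62. The cause was not tested. The number of member peaks shared between sorts stayed within 1.5 times with an overlap of 1 bp. At a median of 17 to 39 reads a peak, counting error limits peaks with few tags.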

Other observations

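The WT microglia libraries disagreed at a small set of peaks that includes the Apoe region. At 29 of the 91770 microglia peaks WT replicate 1 held at least 30 tags and at least 10 times those of WT replicate 2, and 0 peaks showed the reverse. Between the SgshKO libraries there were 2 such peaks in one direction and 1 in the other. The Apoe peak 534 bp upstream (36.3 and 1.69 tags) was the 1 member peak among the 29. The Apoc2 peak near it on chromosome 7 held 63.1 and 0.85 tags in the same libraries.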
